A study of Mus musculus with 9 samples.

Results

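Immune checkpoints are cell-surface ligands and receptors that restrain T cells and other leukocytes, and the SOCS proteins are intracellular brakes on cytokine receptors. PD-L1 and PD-L2, the products of Cd274 and Pdcd1lg2, bind the receptor PD-1, the product of Pdcd1, on activated lymphocytes. Ctla4, Lag3, Tigit and Havcr2 encode further inhibitory receptors. Socs1 and Socs3 are classical feedback genes, since STAT transcription factors induce them and their proteins then dampen JAK kinase signalling. In the brain, PD-L1 can be induced by interferons on glia and endothelium, while PD-1, CTLA-4 and TIGIT are mostly known from infiltrating lymphocytes.

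These 9 genes, Cd274, Pdcd1lg2, Pdcd1, Ctla4, Lag3, Tigit, Havcr2, Socs1 and Socs3, were chosen by name, and 9 of the 9 were found among the 1710 genes of the deposited table. RNA was sequenced from tissue labelled brain ctx of wild-type (WT) mice, taken from the centre of the injected area 10 days after stereotaxic injection. The groups were PBS, LowDose and HighDose, with 3 libraries each. PBS is phosphate-buffered saline, and the series design names the virus as the adeno-associated vector AAV9. The amount of vector behind each dose name, the transgene, the age of the mice and whether a library stands for 1 animal are not given in the labels. P-values therefore measure the spread between these libraries.

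The table holds only genes whose mean FPKM (fragments scaled to transcript length and library total) differed at least 2-fold between some pair of groups. Of the 1710 genes, 1581 differed so between HighDose and PBS. That a gene is in the table, and that it differs at HighDose, is therefore a property of the selection. Library totals, recovered from count and FPKM, were about 18300000 to 23700000 counts per library, and levels in CPM are counts scaled to that total. A count of 3 corresponded to 0.126 to 0.164 CPM. None of the 10 cortical neuron markers looked up is in the table, so the tissue label could not be checked with them. Of 13 striatal neuron markers, 12 are in the table, and their summed level was 1073 to 1598 CPM in PBS, 374 to 907 CPM in LowDose and 370 to 434 CPM in HighDose libraries.

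At HighDose, 9 of the 9 genes were higher than in PBS by edgeR's quasi-likelihood test with Benjamini-Hochberg adjustment over all 1583 tested genes, where 86.3% of tested genes were called higher and 10.7% lower. In 9 of 9 genes every HighDose library lay above every PBS library, as did 85.8% of tested genes. The counts are therefore near the background of this table, and nothing is read from them. The median log2 change of the 9 genes was 3.82, beside 1.90 for all tested genes. That median is the value of Ctla4 itself, which was 5.79 without PBS replicate 2. Ctla4, Pdcd1lg2, Pdcd1 and Tigit had at most 10 counts over the PBS libraries and passed the filter on low counts through HighDose, so the median supports nothing about the genes as a group. Of the other 5 genes, Cd274 had the highest log2 change and Havcr2 and Lag3 the lowest. When the scaling was instead taken from the listed genes alone (TMM), the median of all tested genes became 0.19. Then 6 of the 9 were called higher, as were 37.8% of tested genes, while Pdcd1lg2 lost its call and Havcr2 and Lag3 changed sign. None of the 9 was called at LowDose.

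**Figure D1:**
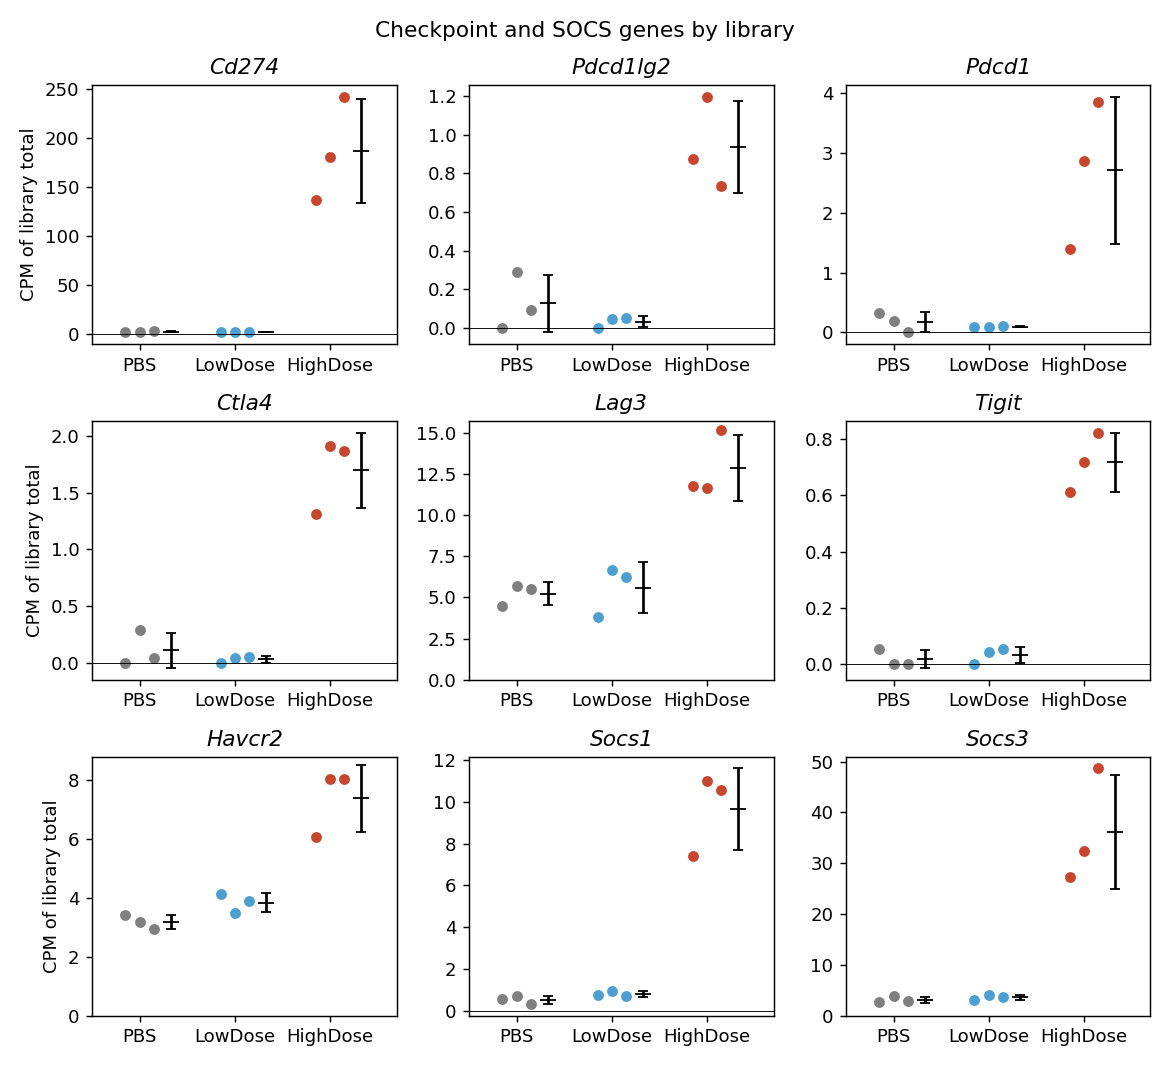
Level of each of the 9 genes in CPM of the library total (linear axis, own scale per panel) in the 3 libraries of PBS, LowDose and HighDose. Points are libraries, and the black bar gives the mean with SD. The 3 HighDose libraries lie above the PBS and LowDose libraries in each panel. Of all tested genes, 85.8% had every HighDose library above every PBS library, and 86.5% above every LowDose library. The HighDose points of Cd274 average 187 CPM, against 2.58 CPM in PBS. Havcr2 (7.39 CPM in HighDose, 3.19 CPM in PBS) and Lag3 (12.9 and 5.24 CPM) changed direction under TMM scaling.

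The ligands come first. Cd274 encodes PD-L1. It lies at chr19:29367455-29388095 on the plus strand (mm10, GENCODE M21), and its exons overlap those of the antisense gene AC119228.1. No source says whether reads were counted by strand, so reads of this pair could not be told apart. Cd274 had 44, 54 and 59 counts in PBS libraries, 47, 50 and 40 in LowDose libraries, and 3135, 3774 and 5588 in HighDose libraries. All HighDose libraries stood far above the others, and HighDose replicate 3 was highest. The mean was 187 ± 52.7 CPM at HighDose and 2.58 ± 0.164 CPM in PBS (SD, n = 3 each). The log2 change was 6.17 ± 0.28 (SE, edgeR adjusted p = 2.04e-23), with a 95% interval of 5.61 to 6.73. Of the tested genes, 92.7% had a lower log2 change. Under TMM the log2 change was 4.44. Cd274 is the member with the widest distance from the all-gene median, at 4.27 on the log2 scale.

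Pdcd1lg2, which encodes PD-L2, starts 43.5 kb downstream of the Cd274 start on the same strand, at chr19:29410919-29471161. It had 0, 6 and 2 counts in PBS libraries, 0, 1 and 1 in LowDose libraries, and 20, 25 and 17 in HighDose libraries. These are low values, near the level of a few reads in PBS and LowDose. The mean was 0.936 ± 0.236 CPM at HighDose and 0.128 ± 0.148 CPM in PBS (SD, n = 3 each). Pdcd1lg2 was higher by 2.78 ± 0.69 on the log2 scale (edgeR adjusted p = 0.000292). Under TMM the value was 1.14, and the call was lost (adjusted p = 0.168). PBS replicate 2 holds 6 of the 8 PBS counts, and without that library the log2 change was 4.09. The neighbouring ligand genes thus differed in level, with a mean FPKM at HighDose of 0.570 for Pdcd1lg2 and 51.5 for Cd274.

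The sequence before the start of each gene was read from RefSeq (GRCm38.p6), which has an entry for 8 of the 9 genes. Lag3 has none. The 250 bases before the RefSeq start were searched on both strands for 2 motifs: the GAS letters TTCNNNGAA, which STAT dimers bind, and the interferon response core, which is GAAA, any 2 bases and GAAA again. The ligand pair and the SOCS pair are printed because they hold the highest and the feedback members. For 6 of these 8 genes the RefSeq start lies within 38 bases of the GENCODE start. For Socs3 it lies 681 bases, and for Ctla4 22025 bases, inside the GENCODE span, so the sequence before their GENCODE start was not searched. Capitals mark a match, and all 4 sequences run 5′ to 3′ on the strand of the gene, at chr19:29367188-29367437 (plus), chr19:29410669-29410918 (plus), chr16:10785537-10785786 (minus) and chr11:117969367-117969616 (minus).
Cd274: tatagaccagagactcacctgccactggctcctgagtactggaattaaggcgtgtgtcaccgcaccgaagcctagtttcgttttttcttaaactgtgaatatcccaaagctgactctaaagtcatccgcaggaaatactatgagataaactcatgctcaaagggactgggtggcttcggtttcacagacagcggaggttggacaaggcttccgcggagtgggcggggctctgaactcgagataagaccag
Pdcd1lg2: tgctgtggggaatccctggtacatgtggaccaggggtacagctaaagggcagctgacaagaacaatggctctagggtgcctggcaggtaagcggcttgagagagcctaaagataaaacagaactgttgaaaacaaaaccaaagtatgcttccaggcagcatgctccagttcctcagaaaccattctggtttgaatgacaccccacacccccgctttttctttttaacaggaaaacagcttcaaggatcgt
Socs1: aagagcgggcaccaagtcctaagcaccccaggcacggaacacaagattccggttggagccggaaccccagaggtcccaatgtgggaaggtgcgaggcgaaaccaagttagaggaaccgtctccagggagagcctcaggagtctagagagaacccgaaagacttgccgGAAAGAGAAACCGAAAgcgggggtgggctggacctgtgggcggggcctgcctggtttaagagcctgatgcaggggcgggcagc
Socs3: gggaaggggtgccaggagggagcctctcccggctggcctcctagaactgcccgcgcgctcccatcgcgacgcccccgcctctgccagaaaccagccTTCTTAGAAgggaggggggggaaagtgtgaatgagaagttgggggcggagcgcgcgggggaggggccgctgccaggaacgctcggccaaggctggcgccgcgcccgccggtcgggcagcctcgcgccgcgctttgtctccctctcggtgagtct

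Socs1 holds 2 overlapping matches to the interferon response core, at 83 to 74 and at 77 to 68 bases before the RefSeq start. Socs3 holds 1 GAS match, at 154 to 146 bases before it, within the GENCODE span of the gene. The other 6 windows, with those of Cd274 and Pdcd1lg2 among them, hold neither set of letters. Over all 32851 promoter windows of this length, 2.98% hold the interferon response core and 7.02% hold the GAS letters. Among the 1623 windows matched to listed genes, 8.01% hold the core and 8.93% the GAS letters. A match is a description of letters and not of a bound site.

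Pdcd1, at chr1:94038305-94052553 on the minus strand, encodes PD-1, the receptor of both ligands. It had 6, 4 and 0 counts in PBS libraries, 2, 2 and 2 in LowDose libraries, and 32, 60 and 89 in HighDose libraries. The HighDose libraries differed among themselves by more than a factor of 2 and still lay above all others. The mean was 2.71 ± 1.24 CPM at HighDose and 0.174 ± 0.164 CPM in PBS (SD, n = 3 each). This is a log2 change of 3.97 ± 0.60 (edgeR adjusted p = 1.17e-07), and 2.24 under TMM. It was 4.75 without PBS replicate 1 and 3.36 without PBS replicate 3.

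Ctla4 encodes a receptor that competes with CD28 for CD80 and CD86, and lies at chr1:60887000-60915832 on the plus strand. It had 0, 6 and 1 counts in PBS libraries, 0, 1 and 1 in LowDose libraries, and 30, 40 and 43 in HighDose libraries. PBS replicate 2 again holds most of the PBS counts. The mean was 1.70 ± 0.333 CPM at HighDose and 0.112 ± 0.156 CPM in PBS (SD, n = 3 each). Ctla4 had a log2 change of 3.82 ± 0.67 (edgeR adjusted p = 1.82e-06), 2.15 under TMM and 5.79 without PBS replicate 2.

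Tigit encodes an inhibitory receptor of T and natural killer (NK) cells that binds the poliovirus receptor Pvr, and lies at chr16:43648867-43664146 on the minus strand. It had 1, 0 and 0 counts in PBS libraries, 0, 1 and 1 in LowDose libraries, and 14, 15 and 19 in HighDose libraries. It was close to undetected outside HighDose, and at HighDose its mean was 0.718 ± 0.105 CPM (SD, n = 3). With 1 count in PBS, the ratio of HighDose to PBS was 43.6, with a 95% counting interval of 7.46 to 1757. Tigit was called by edgeR (adjusted p = 8.00e-06). Its fitted log2 change was 5.01, and 6.98 without PBS replicate 1, which holds the single PBS count, and a fitted value of this kind depends on the prior count.

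Lag3 and Havcr2 had at least 63 counts in each of the 9 libraries, also in PBS, while Pdcd1, Ctla4 and Tigit had at most 6 there. Lag3 encodes an inhibitory receptor that binds MHC class II, and lies at chr6:124904361-124911705 on the minus strand. It had 82, 118 and 120 counts in PBS libraries, 91, 149 and 117 in LowDose libraries, and 269, 244 and 350 in HighDose libraries. The mean was 12.9 ± 1.99 CPM at HighDose and 5.24 ± 0.672 CPM in PBS (SD, n = 3 each). With library totals Lag3 had a log2 change of 1.29 ± 0.26 (edgeR adjusted p = 1.77e-05), which lies 0.61 below the median of all tested genes. Under TMM the value was -0.40 (adjusted p = 0.0864).

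Havcr2 encodes TIM-3, a receptor of T cells and also of myeloid cells and microglia, and lies at chr11:46454935-46481255 on the plus strand. It had 63, 66 and 64 counts in PBS libraries, 98, 78 and 73 in LowDose libraries, and 139, 168 and 186 in HighDose libraries. The mean was 7.39 ± 1.14 CPM at HighDose and 3.19 ± 0.242 CPM in PBS (SD, n = 3 each). With library totals Havcr2 had a log2 change of 1.21 ± 0.28 (edgeR adjusted p = 0.000131), 0.69 below the median of all tested genes. Under TMM it was -0.49, called lower (adjusted p = 0.0224).

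**Figure D2:**
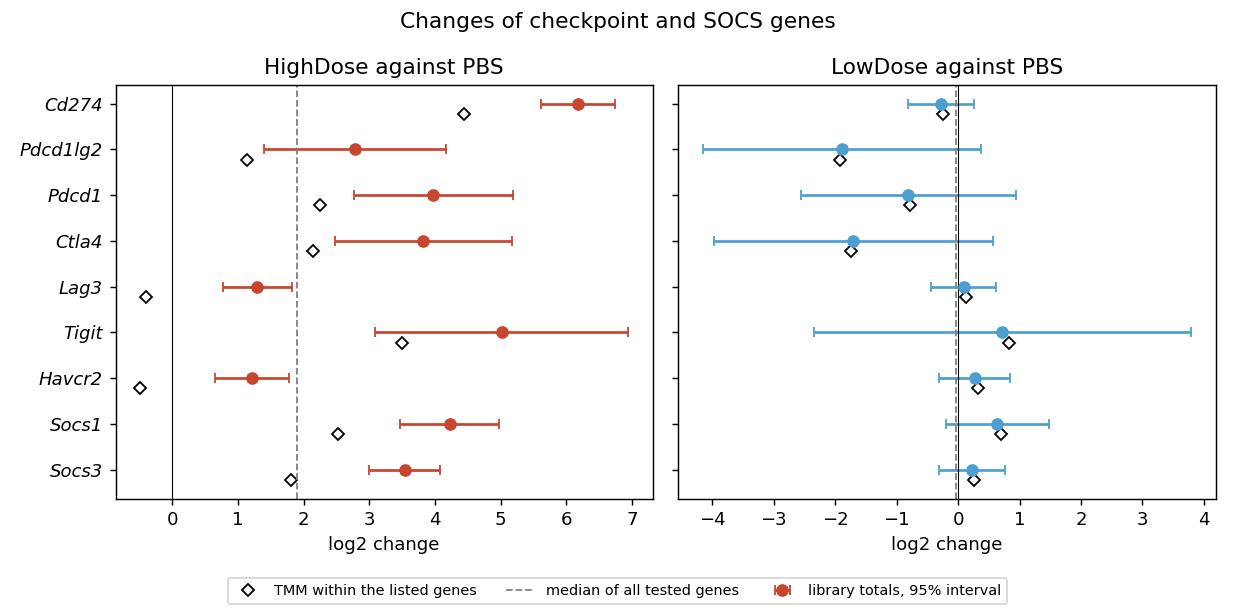
Log2 change of each gene in HighDose against PBS (left) and LowDose against PBS (right). Filled points with bars are the edgeR estimates with library totals and their 95% intervals, open diamonds the TMM estimates, and the dashed line the median of all tested genes (1.90 at HighDose). At HighDose 9 of the 9 intervals lie above 0, where 86.3% of all tested genes were called higher. The TMM values of Lag3 and Havcr2 lie below 0. At LowDose 9 of the 9 intervals include 0.

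Among the brakes on cytokine signalling, Socs1 encodes an inhibitor of JAK kinases downstream of interferon receptors. It lies at chr16:10782240-10785536 on the minus strand. It had 10, 14 and 7 counts in PBS libraries, 18, 21 and 13 in LowDose libraries, and 170, 230 and 244 in HighDose libraries. The mean was 9.67 ± 1.95 CPM at HighDose and 0.515 ± 0.179 CPM in PBS (SD, n = 3 each). Socs1 had a log2 change of 4.22 ± 0.37 (edgeR adjusted p = 7.98e-14), and 2.52 under TMM.

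Socs3 encodes the inhibitor that acts on receptors of the interleukin 6 family, and lies at chr11:117966079-117970047 on the minus strand. It had 48, 79 and 62 counts in PBS libraries, 72, 91 and 70 in LowDose libraries, and 622, 676 and 1123 in HighDose libraries. HighDose replicate 3 was highest in CPM, as it was for Cd274, Pdcd1, Lag3, Tigit and Havcr2. All listed genes together also had their largest part of the library total there, 6.04%, against 3.90% and 5.21% in HighDose replicates 1 and 2. The mean was 36.1 ± 11.2 CPM at HighDose and 3.10 ± 0.640 CPM in PBS (SD, n = 3 each). Socs3 had a log2 change of 3.54 ± 0.27 (edgeR adjusted p = 5.70e-16), and 1.81 under TMM.

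Levels of different genes were compared per length, in FPKM. In PBS libraries the order was Lag3 (2.62 ± 0.341), Socs3 (1.22 ± 0.249), Havcr2 (1.17 ± 0.0902), Cd274 (0.710 ± 0.0458) and Socs1 (0.187 ± 0.0611), with the other 4 at 0.0900 or less (SD, n = 3 each). Socs3 and Havcr2 did not differ beyond their spread there. In LowDose libraries the same 5 genes led in the same order, from Lag3 (2.80 ± 0.768) to Socs1 (0.287 ± 0.0473), with Socs3 and Havcr2 again level (1.42 and 1.41). In HighDose libraries the order was Cd274 (51.5 ± 14.6), Socs3 (14.1 ± 4.39), Lag3 (6.43 ± 0.996), Socs1 (3.45 ± 0.688), Havcr2 (2.71 ± 0.419), Pdcd1 (1.40 ± 0.639), Ctla4 (0.877 ± 0.171), Tigit (0.783 ± 0.115) and Pdcd1lg2 (0.570 ± 0.144). Neighbours from Socs1 to Pdcd1lg2 in this order lie within about the sum of their SDs, with the exception of Havcr2 and Pdcd1. Cd274 thus had a lower level than Lag3, Socs3 and Havcr2 in PBS, and a higher one than all of them at HighDose.

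**Figure D3:**
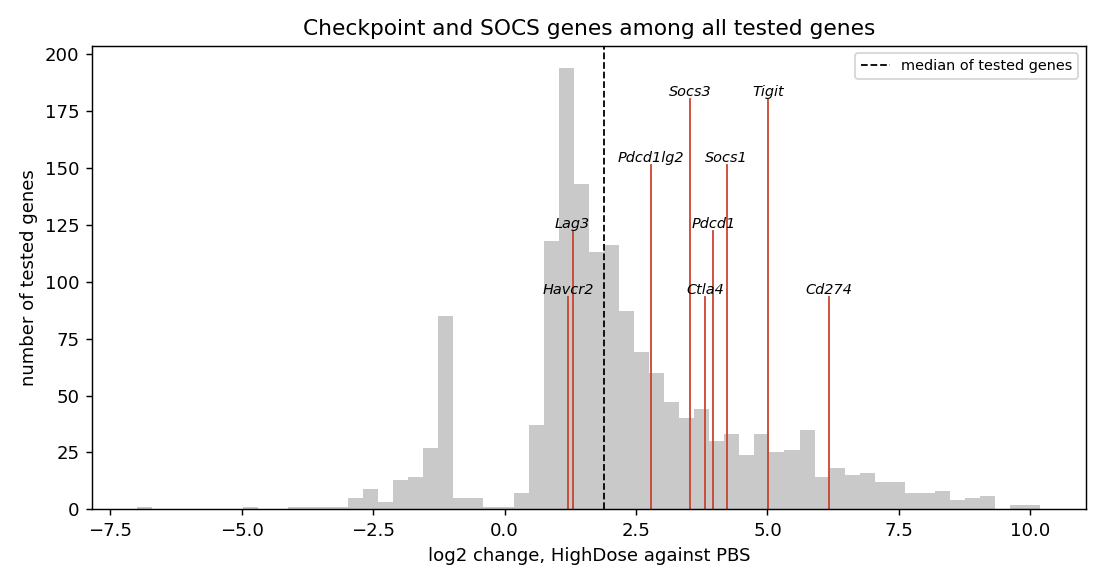
Histogram of the log2 change of HighDose against PBS over the 1583 tested genes (vertical axis, number of genes), with red lines at the 9 genes, whose heights serve only to separate the names, and a dashed line at the median of 1.90. Havcr2 and Lag3 lie left of the median, and the other 7 right of it, with Cd274 farthest at 6.17. Scaling by TMM moves the median to 0.19 and puts Havcr2 and Lag3 below 0.

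LowDose against PBS gave no call among the 9 genes by edgeR, with 0 at an unadjusted p under 0.05, and DESeq2 and limma-voom called 0 as well. Of all tested genes, 0.442% were called higher and 2.15% lower. In simulated counts the test found 50% of true log2 changes of 1 in this comparison, so smaller changes can be missed. With the replicate number as a block over all 9 libraries, 62 genes were called in place of 41, and 0 of the 9. That block ties the HighDose libraries by number too, although the numbers were taken to pair LowDose with PBS libraries only. The other fits leave this pairing out, and no fit paired these 2 groups alone. The log2 change of Cd274 was -0.28 (95% interval -0.82 to 0.25), and every LowDose library lay below every PBS library, as in 13.1% of tested genes. Every LowDose library lay above every PBS library for Socs1 (0.64, interval -0.20 to 1.47) and Havcr2 (0.27, interval -0.31 to 0.84), as in 6.57% of tested genes. Socs3 was at 0.22 (-0.32 to 0.76) and Lag3 at 0.09 (-0.44 to 0.62). For these 5 genes, with library totals, the upper bound at LowDose lies below the log2 change estimated for the same gene at HighDose. That sets a bound against an estimate, in a table selected for change. For Havcr2 the LowDose interval overlaps the HighDose interval (0.64 to 1.78). Under TMM the order turned for 2 of these 5 genes. Havcr2 was 0.32 at LowDose and -0.49 at HighDose, and Lag3 was 0.13 and -0.40. Pdcd1 (-0.81), Ctla4 (-1.71), Pdcd1lg2 (-1.89) and Tigit (0.72) had between 1 and 10 counts per group, and no difference was detectable at this depth. With each library left out in turn, Pdcd1 ran from -1.42 to -0.03, Ctla4 from -2.22 to 0.27, Pdcd1lg2 from -2.41 to -0.58 and Tigit from 0.22 to 2.68.

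HighDose against LowDose, which shares its HighDose libraries with the first comparison, gave higher calls for 9 of the 9 genes by edgeR, where 88.1% of tested genes were called higher. Every HighDose library lay above every LowDose library in 9 of 9, as in 86.5% of tested genes. The log2 change was 6.46 ± 0.28 for Cd274, 3.58 ± 0.35 for Socs1, 3.32 ± 0.26 for Socs3, 4.78 ± 0.65 for Pdcd1, 1.20 ± 0.26 for Lag3 and 0.94 ± 0.28 for Havcr2 (SE). The call of Havcr2 was lost when p was adjusted over all annotated genes (adjusted p = 0.0635). Under TMM the values of Lag3 and Havcr2 were -0.53 and -0.81, called lower (adjusted p = 0.0295 for Lag3 and 0.00102 for Havcr2). With 2 counts each in LowDose, the ratio of HighDose to LowDose was 54.7 for Ctla4 (counting interval 14.8 to 457), 30.0 for Pdcd1lg2 (7.96 to 253) and 23.2 for Tigit (6.09 to 197).

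Ratios of 2 transcripts within a library do not depend on the scaling, and they were chosen after values had been seen. There were 21 such tests, the smallest p that 3 against 3 libraries allow is 0.1 (exact permutation, two-sided), and none could pass 0.05. Socs3 over Stat3 was 0.331, 0.345 and 0.389 in HighDose libraries, against 0.0766, 0.125 and 0.0871 in PBS libraries, with no overlap (exact p = 0.1, adjusted p = 0.15). Socs1 over Socs3 averaged 0.252 in HighDose and 0.154 in PBS libraries, also without overlap, while LowDose libraries (mean 0.203) overlapped with both. The ratio was 0.194, 0.160 and 0.107 in PBS libraries, 0.227, 0.212 and 0.170 in LowDose libraries and 0.250, 0.309 and 0.198 in HighDose libraries. In each same-numbered pair of PBS and LowDose libraries it was higher in LowDose, with 7 to 21 Socs1 counts per library. The exact permutation, which takes libraries as unpaired, gave p = 0.2 (adjusted p = 0.28) for these 2 groups, and nothing is read from this direction. The replicate numbers were taken to pair these 2 groups only, so no order over the 3 groups is read from them. Cd274 over Socs1 was 14.2, 12.7 and 17.7 in HighDose libraries, against 3.30, 3.0 and 6.25 in PBS libraries, again without overlap (exact p = 0.1). In LowDose libraries it was 2.04, 1.82 and 2.36, below every PBS library (exact p = 0.1, adjusted p = 0.15). That p also takes the libraries as unpaired, and a p for the pairs was not computed. Stat3 itself rose by 1.62 ± 0.22 on the log2 scale at HighDose with library totals (edgeR adjusted p = 6.50e-09). This lies below the median of 1.90 for all tested genes.

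Aif1, which encodes the microglia and macrophage protein IBA1, rose by 2.27 ± 0.28 on the log2 scale at HighDose (edgeR adjusted p = 1.20e-09). Havcr2 over Aif1 was 0.160, 0.197 and 0.155 in HighDose libraries, against 0.414, 0.289 and 0.394 in PBS libraries. Lag3 over Aif1 was 0.421, 0.390 and 0.397 in HighDose libraries, against 0.734, 0.701 and 1.01 in PBS libraries. In both ratios the HighDose libraries lay below the PBS libraries (exact p = 0.1 each). Of the 8 tested microglia markers 5 rose and 3 fell, beside 86.3% of all tested genes called higher and 10.7% lower. Among these 8, Aif1 had the largest log2 change. Tmem119 and Itgam rose by 1.05 each and P2ry12 changed by -0.97, beside 1.21 for Havcr2 and 1.29 for Lag3. The lower ratios thus hold for Aif1, and ratios to other microglia markers were not taken.

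**Figure D4:**
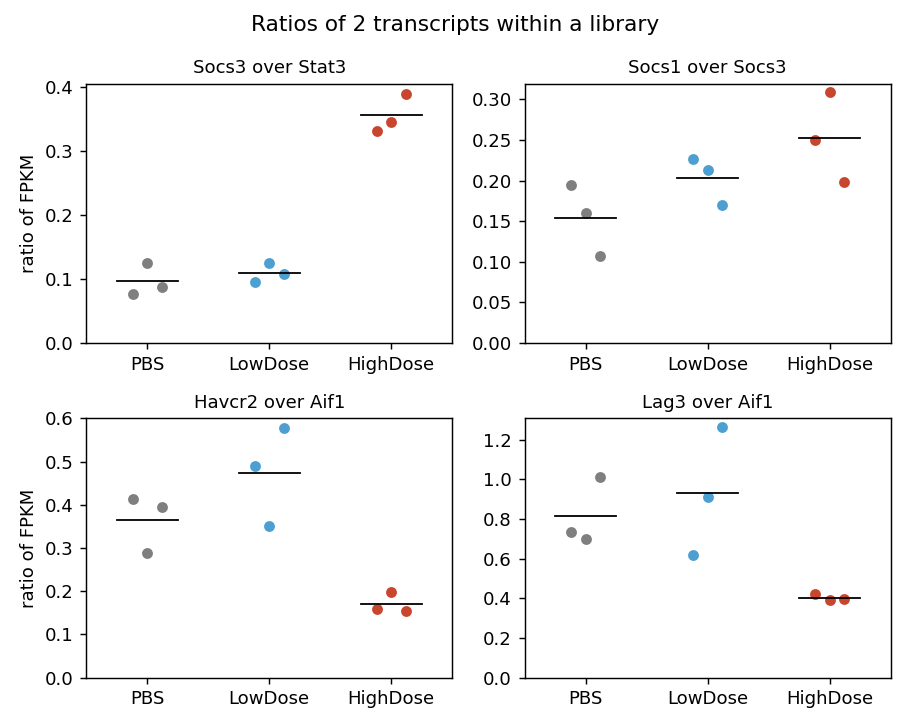
Ratio of the FPKM of 2 genes within each library, for 4 pairs, in PBS, LowDose and HighDose (points, libraries; bars, means; linear axes from 0). Socs3 over Stat3 is highest in the 3 HighDose libraries, and Havcr2 over Aif1 and Lag3 over Aif1 are lowest there. Socs1 over Socs3 is higher in HighDose than in PBS libraries, with LowDose libraries overlapping both.

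The lymphocyte receptors were set beside the CD3 chains of the T cell receptor complex. Cd3d, Cd3e and Cd3g had 105, 106 and 164 counts over the HighDose libraries, against 0, 2 and 3 over the PBS libraries. In HighDose libraries, Pdcd1 over the summed CD3 chains was 0.301, 0.248 and 0.389 in FPKM, Ctla4 was 0.285, 0.166 and 0.188, and Tigit was 0.280, 0.131 and 0.176. Pdcd1 had the highest of the 3 ratios in each HighDose library. Cd274 over its receptor Pdcd1 was 52.6, 33.7 and 33.6 there. Lag3 over CD3 averaged 1.64 in HighDose and 38.6 in PBS libraries. Havcr2 over CD3 averaged 0.669 in HighDose and 16.8 in PBS libraries. In PBS these transcripts were thus counted beside almost no CD3 reads.

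Markers of immune cells were looked up as well. The counts that follow stand beside 86.3% of all tested genes called higher, or 37.8% under TMM, in a table selected for change, and nothing is read from them. Of 20 T cell markers, 16 were tested and 16 rose at HighDose, such as Lck (3.89 ± 0.39), and 15 under TMM. Their summed level was 31.0 to 60.7 CPM in HighDose and 2.37 to 3.32 CPM in PBS libraries, where Cd3d was at 0. Of 16 NK and cytotoxic markers, 16 rose, and 15 under TMM, such as Gzmb (8.57 ± 0.45) and Ccl5 (8.45 ± 0.43), with a summed 68.6 to 127 CPM in HighDose and 0.775 to 1.20 CPM in PBS libraries. Of 8 tested monocyte and dendritic cell markers, 7 rose and 1 fell, with a summed 126 to 226 CPM in HighDose and 2.71 to 4.03 CPM in PBS libraries. Of 4 tested B and plasma cell markers 3 rose. At most 10 counts over the PBS libraries were found for 11 of the 16 T cell, 15 of the 16 NK, 4 of the 8 monocyte and dendritic cell and 3 of the 4 B cell markers. Such genes passed the filter through HighDose, and their fitted changes depend on the prior count. The part of these cells in the receptor results was not tested, and in bulk tissue more cells of a type and more RNA per cell cannot be told apart.

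Of 15 microglia markers, 8 were tested, of which 5 rose and 3 fell, beside 86.3% of all tested genes called higher and 10.7% lower. The median of the 8 was 1.05 (-0.64 under TMM), with a summed 218 to 254 CPM in HighDose and 159 to 196 CPM in PBS libraries. The astrocyte filament genes Gfap (1.85 ± 0.23) and Vim (1.49 ± 0.21) and the endothelial gene Vwf (1.09 ± 0.22) rose with library totals. Of these 3, 0 were called higher under TMM, beside 37.8% of all tested genes. All 12 tested striatal neuron markers fell (median -1.97), beside 10.7% of all tested genes called lower. Their part in the SOCS and Cd274 values was not tested.

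Of 17 other checkpoint and costimulatory ligands, 8 are in the table and 7 were tested, of which 7 rose at HighDose with a median of 2.55, and 4 under TMM. The counts of this and the next lists are again to be set beside 86.3% of all tested genes called higher, or 37.8% under TMM, and nothing is read from them. The galectins Lgals9, a ligand of TIM-3 (3.75 ± 0.25, edgeR adjusted p = 1.17e-17), and Lgals3, a ligand of LAG-3 (4.30 ± 0.31, adjusted p = 1.77e-16), had the smallest p. Of 17 other checkpoint and costimulatory receptors, 12 are in the table and 10 were tested, of which 10 rose, and 6 of these 10 had at most 10 counts over the PBS libraries. Cd244a, a receptor of NK and T cells (5.0 ± 0.64), and the costimulatory receptor Icos (5.18 ± 0.68) led by p. Of 15 exhaustion and activation factors, 4 were tested and 4 rose, with the T-box factors Tbx21 (4.15 ± 0.70) and Eomes (2.57 ± 0.56) named by their p and also members of the NK list, and 1 of the 4 was called higher under TMM. Of 9 regulatory T cell genes 3 were tested and 3 rose, with the smallest p for Il2ra (4.85 ± 0.52) and Lrrc32 (0.997 ± 0.259), with 1 called higher under TMM. Foxp3, Il10 and Itgae were in the table but under the filter on low counts.

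Of 20 other brakes on cytokine signalling, 4 are in the table and 4 rose (median 2.47), 2 of them under TMM. Usp18, which blocks the type I interferon receptor, rose by 7.06 ± 0.31 and the phosphatase gene Ptpn6 by 2.75 ± 0.25 (edgeR adjusted p = 1.64e-23 for Usp18 and 1.72e-13 for Ptpn6). Socs2, Socs4 to Socs7 and Cish were not analysed here. Of 32 JAK-STAT cytokines, receptors, kinases and factors, 21 are in the table and 19 were tested, of which 19 rose, and 11 under TMM. Irf1, an interferon-induced transcription factor, rose by 4.60 ± 0.25.

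At LowDose these lists had few calls. Eomes was lower than in PBS (-3.89 ± 1.04, edgeR adjusted p = 0.0301) and the dendritic cell gene Cd209a higher (3.24 ± 0.91, adjusted p = 0.0427). Under TMM the log2 changes were -4.04 for Eomes and 3.35 for Cd209a. These calls were lost under that scaling, with an edgeR adjusted p of 0.121 for Eomes and 0.148 for Cd209a. They were lost as well without single libraries, for Eomes without PBS replicate 3 (0.0990), LowDose replicate 1 (0.0618) or LowDose replicate 2 (0.110), and for Cd209a without PBS replicate 2 (0.137), PBS replicate 3 (0.119), LowDose replicate 2 (0.0556) or HighDose replicate 3 (0.0607). Of the 12 striatal neuron markers 10 were called lower at LowDose, beside 2.15% of all tested genes. The median of the 12 was -1.18, beside -0.03 for all tested genes. Of these 10 calls 0 were made under TMM and 0 with DESeq2 size factors, and 4 when p was adjusted over all annotated genes. The median of the 12 was -1.11 under TMM and -1.13 with DESeq2 size factors. Each of these 2 scalings gave 6 calls among all 1583 tested genes. With the replicate block 12 of the 12 were called lower, and 6 without LowDose replicate 3. No other tested member of the lists was called.

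For the 5 genes with a mean of at least 1 CPM over the 9 libraries, the tested genes with the most similar profile were found, by the root mean square (RMS) difference of log2(CPM + 0.5) from the PBS mean over the 6 LowDose and HighDose libraries, among 1518 genes. Cd274 was closest to Ifi205 (RMS 0.149), Gbp3 (0.150) and Gbp10 (0.168). Socs1 was closest to Ch25h (0.166), H2-T10 (0.183) and Neurl3 (0.188), and Socs3 to Apol10b (0.134), Ch25h (0.145) and Cmpk2 (0.153). The 0.5 CPM added before the logarithm shrinks the change of low genes, so closeness holds on that scale. The edgeR log2 change at HighDose was 8.19 for Ifi205, 7.50 for Gbp10 and 5.95 for Gbp3, beside 6.17 for Cd274, and 4.72 for Apol10b and 4.63 for Ch25h, beside 3.54 for Socs3. Lag3 was closest to Vnn1 (0.126), Plod3 (0.135) and Phlda3 (0.142), and Havcr2 to Rab13 (0.0944), Sh3tc1 (0.102) and Nt5c3 (0.103).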

How the data were processed

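The authors deposited estimated counts per gene and library, made on mouse build mm10 per the submitters' processing notes. These also name edgeR and DESeq2, with no role. No aligner or counter is named there or in the labels. Between 7.66% and 14.0% of a library's count values had decimals and were rounded; the 9 genes had whole counts throughout. FPKM values deposited by the authors were used for levels between genes, for ratios and to recover library totals, with single-transcript genes of GENCODE M21 (FPKM at least 5, at least 100 counts, length at least 600 bases).

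Counts were filtered with filterByExpr (minimum 10) and tested in edgeR 4.0.16 under R 4.3.3, with the 3 groups in 1 model, library totals as library sizes and a Benjamini-Hochberg threshold of 0.05. Each SE is the absolute log2 change divided by √F. Counting intervals are exact at 95% and cover counting error only. The test was checked on simulated counts, with changes set in genes of at least 10 expected counts. A true log2 change of 1 was recovered for 62% of changed genes in HighDose against PBS and 50% in LowDose against PBS. For a true log2 change of 2 it was 96% and 94%. TMM, DESeq2 1.42.0 and limma-voom (limma 3.58.1) were among the alternatives. The 9 genes and the lists were chosen with earlier results of these data known. The 9 genes are named, and of each list the 2 called genes with the smallest p in HighDose against PBS. Eomes and Cd209a at LowDose, and the CD3 chains and Stat3, were named after their values were seen. Replicates of a group differed by more than sampling noise. Same-numbered libraries deviated together in PBS and LowDose (r = 0.246, 0.165 and 0.137). They did not throughout in HighDose and PBS (0.0687, -0.0056 and 0.151) or HighDose and LowDose (0.182, 0.0144 and 0.0831). Pairs with different numbers ran from -0.179 to 0.130. The numbers were taken to pair LowDose with PBS libraries only, though these r do not separate this from a weak pairing of all 3 groups. The main fit and the exact permutation p treat the libraries as unpaired. No fit paired LowDose with PBS alone. Some genes that this choice takes in are not reported here.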

Additional observations from a re-analysis of the deposited data

How the results depend on the processing

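With library totals, 9 of the 9 genes stayed called higher in HighDose against PBS with DESeq2, limma-voom, no filter, only the 2 groups compared and each library left out, while the filter at 1 CPM in 3 libraries left 7 to test, all called. Of all tested genes, 1359 of 1583 were called higher with DESeq2 and 1382 of 1583 with limma-voom. Without the filter it was 1482 of 1710, with only the 2 groups 1357 of 1574, and with the filter at 1 CPM 1226 of 1417. The counts of the 9 are near these shares, and nothing is read from them. Scaling within the listed genes moved the median of all tested genes from 1.90 to 0.19 (TMM) or 0.22 (DESeq2 size factors) and the calls from 1366 higher and 169 lower to 598 and 466 under TMM; that scaling takes most listed genes as unchanged. It left 6 of the 9 called higher, beside 598 (TMM) and 605 (DESeq2 size factors) of 1583 tested genes. Havcr2 came to -0.49 (TMM) and -0.46 (DESeq2 size factors) and Lag3 to -0.40 and -0.37 against PBS, and Havcr2 to -0.81 and -0.77 and Lag3 to -0.53 and -0.49 against LowDose. Adjusted over all 55450 annotated genes, an alternative added after seeing the data, Havcr2 in HighDose against LowDose lost its call (adjusted p = 0.0635). In LowDose against PBS, where no gene of the 9 is called, Pdcd1 was 0.25 with limma-voom, and with each library left out Lag3 ran from -0.063 to 0.30 and Ctla4 from -2.22 to 0.27. All tested genes called there numbered 41, and 6 with TMM, 6 with DESeq2 size factors, 96 with limma-voom, 8 over all annotated genes and 26 to 79 with each library left out (79 without LowDose replicate 1, 26 without LowDose replicate 2). With the replicate number as a block over all 9 libraries, HighDose among them, 62 genes were called in LowDose against PBS, and no call of the 9 genes changed in any comparison. Depth limits Pdcd1lg2, Ctla4, Tigit and Pdcd1 outside HighDose, at 1 to 10 counts per group.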
